A study of Mus musculus with 20 samples.

Results

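The 6 subunits of respiratory complexes III, IV and V described here are made inside the mitochondrion, and footprints of all 6 were measured in mouse embryonic stem cells (mESCs). They are cytochrome b of complex III (MT-CYTB), the 3 catalytic-core subunits of cytochrome c oxidase, complex IV (MT-CO1, MT-CO2 and MT-CO3), and the membrane subunits of the ATP synthase, complex V (MT-ATP6 and MT-ATP8). They are 6 of the 22416 gene rows of the count table, picked by gene name and complex with no threshold on a measured value, though earlier results of these data were known. All 6 passed the filter on low counts in every fit, as did the 7 mitochondrially encoded subunits of complex I.

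Ribosome footprints were sequenced from cells homozygous for a knock-in allele, eIF2αA/A (KI), and from eIF2α+/+ (WT) cells. eIF2α is the initiation factor subunit whose phosphorylation lowers general initiation on cytosolic ribosomes, and the series asked how this phosphorylation bears on the naive pluripotent state. Both genotypes were kept for 6 days in serum-free medium with LIF at 1000 U/mL, either with the inhibitors PD0325901 and CHIR99021 (LIF/2i) or without them (LIF). Lysates were digested with micrococcal nuclease (MNase) in 3 replicates per group or with RNase I in 2, which gives 12 and 8 libraries. RNase I was marked in the labels, and MNase was taken from the protocol for the libraries not marked so. Cells were washed with cycloheximide, and fragments of 25 to 40 nt from the monosome peak were cloned. Footprints alone were analysed, without matched RNA levels, and a footprint level therefore combines RNA abundance and translation. The labels name neither the parental strain nor the number of clones per genotype, nor whether each replicate was grown as a culture of its own, and p-values refer to the spread between libraries as labelled, which may be technical. The counts cannot check the amino acid change itself.

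Mitochondrial DNA is transcribed from both strands as long precursors, which are cut into separate messages and translated by ribosomes unlike those of the cytosol. The message for MT-ATP8 and MT-ATP6 carries both reading frames on 1 RNA, and the frames overlap. In RefSeq's GRCm38.p6 gene table, MT-CO2, MT-ATP8, MT-ATP6 and MT-CO3 follow one another, and MT-ATP6 abuts MT-CO3. Complex III and complex IV pump protons while passing electrons to oxygen, and complex V makes ATP from the proton gradient. Cycloheximide arrests cytosolic and not mitochondrial ribosomes. The same RefSeq table lists a nuclear pseudogene, Gm10925, with mt-Atp6 among its older names. How footprints that match both a mitochondrial gene and a nuclear copy were counted is not stated, which leaves the levels of genes with such copies uncertain. Copies of the other 5 genes were not searched for, and MT-CO2 and MT-CO3 could share reads with one as MT-ATP6 could. The build behind the counts is not stated either, and no coordinates are printed.

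Library totals with MNase were 2127850 to 5461210 counts in WT and 6560173 to 8894080 in KI. They did not overlap between genotypes, so MNase depth and genotype cannot be told apart by total. With RNase I they were 4011036 to 22916734 in WT and 1965050 to 16359039 in KI. Levels are given as CPM, a gene's counts scaled to a common library total after TMM normalization. The 8 mESC markers (Pou5f1, Sox2, Nanog and others) were all detected in every group. With MNase they summed per library to 4930 to 5410 CPM in WT and 4730 to 5100 in KI in LIF/2i, and to 3310 to 4400 and 2830 to 3210 in LIF. In LIF/2i 1 of the 8 was called higher in KI and 1 lower, against 13.8% and 11.5% of all genes. In LIF 3 of the 8 were called lower in KI and 0 higher, against 6.05% and 7.36%. From LIF/2i to LIF 6 of 8 were called lower in KI cells and 4 of 8 in WT cells, against 10.3% and 11.0%. With RNase I the sums were 3800 to 4140 in LIF/2i and 2560 to 3250 in LIF. In LIF, 8 markers of primitive endoderm summed to 189 to 272 CPM in WT and 59.5 to 69.0 in KI with MNase, 8 of trophoblast to 465 to 666 and 299 to 319, and 8 of fibroblasts to 53.5 to 664 and 87.5 to 118. In LIF/2i with MNase, endoderm markers summed to 66.0 to 67.6 in WT and 38.5 to 60.3 in KI, trophoblast markers to 190 to 256 and 102 to 255, and fibroblast markers to 4.61 to 6.88 and 11.3 to 15.2, with Lum and Dcn at 0. The part of these cell types in the differences below was not tested, and in bulk samples fewer cells of a type and less RNA per cell cannot be told apart. Replicate 1 of KI stood apart from the other MNase libraries in both media, at -44.43 and -45.53 on the third principal component against -1.01 to 21.62 for the rest. Values without it in both media are given where they change a call of the 6 genes.

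With MNase in LIF/2i, 5 of the 6 genes were lower in KI than in WT, and MT-CO2, MT-CO3 and MT-ATP6 had the lowest values of the 6. Over all 12806 genes tested, edgeR's quasi-likelihood test called 25.4% in either direction and 11.5% lower at an adjusted p under 0.05. The median log2 difference was -2.28 for the 6 genes and 0.01 for all genes tested. Log2 differences are KI minus WT with the standard error (SE) of the fit.

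MT-CO2 carries the copper centre that takes electrons from cytochrome c. Its level was 70.9, 80.7 and 57.0 CPM in the 3 WT libraries and 5.34, 2.56 and 5.79 CPM in the 3 KI libraries, which rested on 35, 20 and 41 counts. The log2 difference was -3.93 (SE 0.34, 95% interval -4.66 to -3.20; edgeR adjusted p = 5.5e-05), a 15.3-fold lower level. MT-CO3 stabilises the oxidase core. It stood at 84.4, 93.6 and 70.8 CPM in WT and at 8.70, 4.10 and 6.07 CPM in KI, a log2 difference of -3.73 (SE 0.26; edgeR adjusted p = 1.0e-05). MT-ATP6 lines the proton channel of the ATP synthase. It stood at 106, 118 and 87.5 CPM in WT and at 16.3, 5.12 and 10.9 CPM in KI, a log2 difference of -3.27 (SE 0.37; edgeR adjusted p = 4.0e-04). For these 3 genes the highest KI library, at 5.79, 8.70 and 16.3 CPM, lay below the lowest WT library, at 57.0, 70.8 and 87.5 CPM. Ranked by log2 difference from the lowest of the 12806 genes tested, MT-CO2 stood at 7, MT-CO3 at 11 and MT-ATP6 at 25.

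The other 3 genes differed less. MT-CO1 holds the oxygen-reducing centre, and its level went from 720 ± 60.2 CPM (SD, n = 3) in WT to 295 ± 44.0 in KI, a log2 difference of -1.29 (SE 0.18; edgeR adjusted p = 6.3e-04). Its libraries did not overlap, with 664 CPM the lowest in WT and 343 the highest in KI. MT-ATP8, the small subunit whose frame precedes MT-ATP6, went from 576, 558 and 422 CPM in WT to 348, 174 and 184 in KI, a log2 difference of -1.14 (SE 0.36; edgeR adjusted p = 0.0340). That call was lost when WT replicate 1 or 2 or KI replicate 2 or 3 was left out, with adjusted p between 0.0819 and 0.131. MT-CYTB, the quinone-oxidising core of complex III, did not pass the test. It stood at 689, 830 and 564 CPM in WT and at 656, 574 and 520 in KI, with a log2 difference of -0.25 (95% interval -0.72 to 0.22; edgeR adjusted p = 0.415), and the groups overlapped. The other 5 genes had every KI library below every WT library, as did 18.5% of all genes tested.

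**Figure D1:**
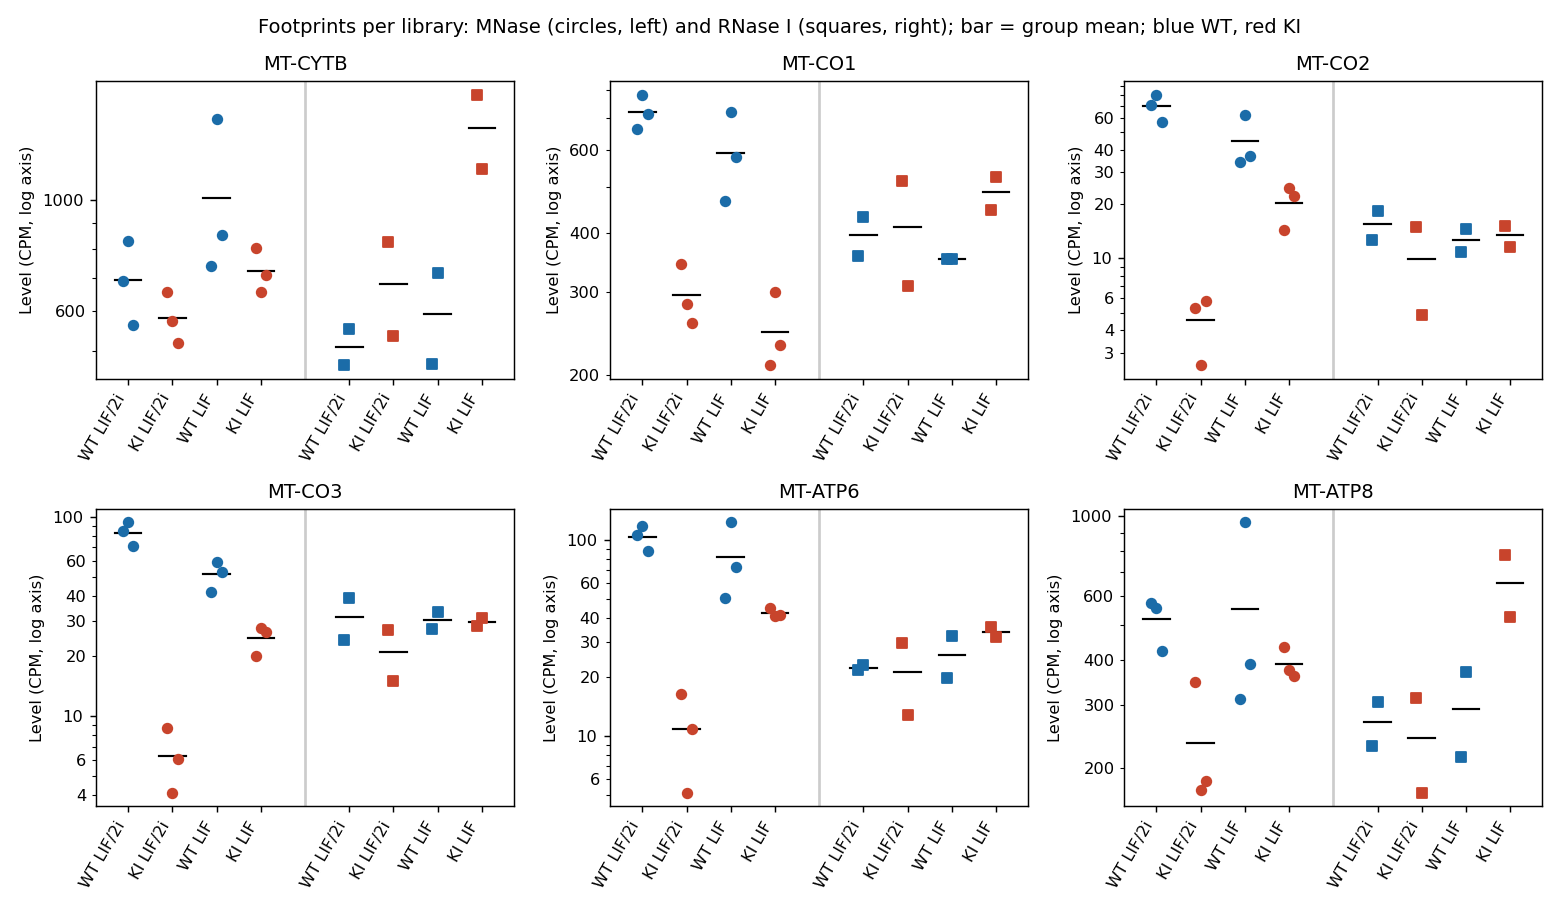
Level of each of the 6 genes in every library, in CPM on a log axis, with a panel per gene, MNase libraries as circles on the left, RNase I libraries as squares on the right, WT in blue, KI in red and bars at group means. With MNase the KI LIF/2i libraries of MT-CO2, MT-CO3 and MT-ATP6 lie at 2.56 to 16.3 CPM, below all others of that nuclease, while with RNase I the genotypes overlap in LIF/2i for all 6 genes.

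The drop in the level of MT-CO2, MT-CO3 and MT-ATP6 was also a drop in their share of mitochondrial footprints. Together they made up 4.71%, 4.45% and 4.20% of the counts of the 13 mitochondrially encoded genes in the WT libraries and 0.773%, 0.377% and 0.770% in the KI libraries. All 13 genes together held 0.547%, 0.662% and 0.533% of library counts in WT and 0.368%, 0.291% and 0.280% in KI. Both shares were lower in every KI library than in any WT library, as was the CPM of 18.5% of all genes tested. MT-CYTB went the other way within the mitochondrial counts, with 12.4%, 12.6% and 11.0% in WT and 16.7%, 18.4% and 17.6% in KI. Shares of a fixed total must rise for some genes when they fall for others, and in CPM MT-CYTB was not called (-0.25). Of the complex I subunits, every KI share lay above every WT share for MT-ND4, and below for MT-ND3 and MT-ND6. When libraries were scaled by the total of the 13 genes, an alternative chosen after seeing the data that moved the median of all genes to 0.80 and called 51.7% of them, MT-CO2, MT-CO3 and MT-ATP6 stood at -3.13, -2.95 and -2.51 (edgeR adjusted p of 8.8e-07, 7.9e-07 and 6.1e-06). On that scale MT-CO1 stood at -0.51 (edgeR adjusted p = 0.069), MT-ATP8 at -0.39 (0.213) and MT-CYTB at 0.55 (0.0475).

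A ratio of counts within a library does not depend on how libraries are scaled. MT-ATP6 and MT-CO3 were singled out by their low values with MNase in LIF/2i, so their lower ratios there are not a separate result. MT-ATP6 and MT-ATP8 are read from the same RNA. Per 100 MT-ATP8 counts there were 18.3, 21.1 and 20.7 MT-ATP6 counts in WT and 4.70, 2.94 and 5.90 in KI. In LIF the ratio was 16.3, 12.8 and 18.8 in WT and 10.4, 10.9 and 11.4 in KI. The genotypes did not overlap in either medium, and the ratio was lowest in KI cells in LIF/2i. MT-CO3 against MT-CO1, both in complex IV, gave 12.7, 11.9 and 9.94 counts per 100 in WT LIF/2i and 2.53, 1.45 and 2.35 in KI LIF/2i, against 8.24 to 9.14 in WT LIF and 9.17 to 11.3 in KI LIF.

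With MNase in LIF, 3 of the 6 genes were lower in KI, and the differences were smaller. There edgeR called 13.4% of genes tested in either direction and 6.05% lower. The median was -1.02 for the 6 genes and -0.01 for all genes. MT-CO1 stood at 468, 721 and 579 CPM in WT and 210, 300 and 232 in KI, with a log2 difference of -1.25 (SE 0.18; edgeR adjusted p = 0.0017), close to its difference in LIF/2i. MT-CO3 stood at 42.0, 59.4 and 52.9 CPM in WT and 24.6 ± 4.02 (SD, n = 3) in KI, the highest at 27.5, with -1.07 (SE 0.23; edgeR adjusted p = 0.0101). MT-CO2 stood at 34.2, 61.8 and 37.1 CPM in WT and 14.3, 24.6 and 22.1 in KI, with -1.13 (SE 0.30; edgeR adjusted p = 0.0249). These 3 subunits of complex IV were lower in every KI library than in any WT library. The call for MT-CO2 was lost without WT LIF replicate 2 (adjusted p = 0.122), KI LIF replicate 1 (0.0539) or KI LIF replicate 3 (0.0664).

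MT-ATP6 stood at 50.6, 123 and 73.0 CPM in WT LIF and 45.1, 40.8 and 41.2 in KI LIF, a log2 difference of -0.96 that missed the threshold (SE 0.33; edgeR adjusted p = 0.0713). Its KI libraries all lay below its WT libraries, as did those of MT-CO1, MT-CO2 and MT-CO3 and of 17.5% of all genes tested, and the value passed without KI replicate 1 in both media (-1.02, adjusted p = 0.0274) and with DESeq2 (-0.96, DESeq2 adjusted p = 0.0355), which called 16.8% of genes, and without KI LIF/2i replicate 1 (adjusted p = 0.0316) or 2 (0.0364). MT-ATP8 stood at 311, 961 and 389 CPM in WT and 434, 374 and 361 in KI (-0.51, edgeR adjusted p = 0.370), and MT-CYTB at 739, 1450 and 852 in WT and 801, 657 and 708 in KI (-0.49, edgeR adjusted p = 0.154). WT LIF replicate 2 was the highest library of its group for all 6 genes. On the scale of the mitochondrial total, where the median of all genes moved to 0.57 and 28.1% of them were called, only MT-CO1 of the 6 passed in LIF (-0.64, edgeR adjusted p = 0.0428).

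**Figure D2:**
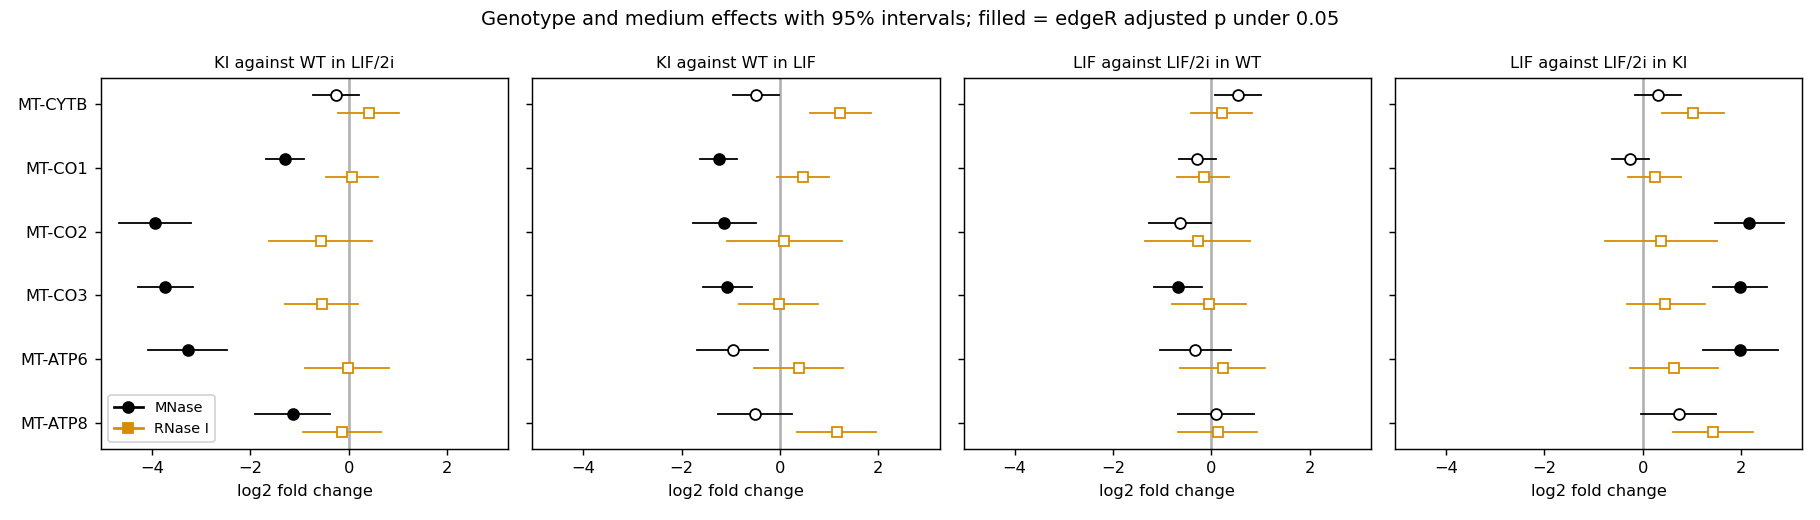
Log2 fold changes with 95% intervals for the 6 genes in 4 comparisons, MNase as circles and RNase I as squares; filled marks have an edgeR adjusted p under 0.05. With MNase the KI against WT differences reach -3.93 in LIF/2i, and no RNase I mark is filled.

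Between media, 1 of the 6 genes passed the test in WT cells with MNase and 3 in KI cells, in opposite directions. In WT cells, where 11.0% of all genes were called lower in LIF, MT-CO3 fell (-0.68, SE 0.23; edgeR adjusted p = 0.0490). MT-CO2 (-0.64, edgeR adjusted p = 0.137), MT-ATP6 (-0.33, 0.528), MT-CO1 (-0.29, 0.265), MT-ATP8 (0.10, 0.880) and MT-CYTB (0.55, 0.0926) did not pass. The call for MT-CO3 was lost without either of WT LIF/2i replicates 1 and 2, any of the WT LIF replicates, KI LIF/2i replicate 3 or KI LIF replicates 2 and 3, with adjusted p between 0.0578 and 0.163, and in 1 of 2 random draws that thinned libraries to the smallest total (0.0731). Without WT LIF replicate 1, MT-CYTB passed in its place (0.72, adjusted p = 0.0415). In KI cells, 18.7% of all genes were called, 8.37% higher in LIF, and 3 of the 6 genes rose: MT-CO2, MT-CO3 and MT-ATP6. MT-CO2 rose from 4.56 ± 1.75 CPM (SD, n = 3) to 20.3 ± 5.37, a log2 difference of 2.16 (SE 0.33; edgeR adjusted p = 7.2e-04). MT-CO3 rose from 6.29 ± 2.31 to 24.6 ± 4.02 CPM, by 1.98 (SE 0.25; edgeR adjusted p = 2.1e-04). MT-ATP6 rose from 10.8 ± 5.61 to 42.4 ± 2.36 CPM, by 1.98 (SE 0.36; edgeR adjusted p = 0.0021). For these 3 genes the lowest KI library in LIF lay above the highest in LIF/2i, as for 17.1% of all genes tested. MT-ATP8 differed by 0.73 (edgeR adjusted p = 0.175), MT-CYTB by 0.31 (0.355) and MT-CO1 by -0.25 (0.343), none past the threshold. MT-ATP8 passed without KI LIF/2i replicate 1 (1.12, adjusted p = 0.0412). Same-numbered KI libraries deviated together across media, and the values above do not take this into account. The fit with the replicate block, which is shared with WT, gave 2.13, 1.97 and 1.98 for MT-CO2, MT-CO3 and MT-ATP6, with the same 3 genes called.

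The genotype difference itself differed between media for MT-CO2 and MT-CO3. The genotype by medium interaction, the KI against WT difference in LIF minus that in LIF/2i, was 2.81 for MT-CO2 (SE 0.44; edgeR adjusted p = 0.0138) and 2.66 for MT-CO3 (SE 0.34; edgeR adjusted p = 0.0085), where 0.336% of all genes were called and 0.102% called higher. For MT-ATP6 it was 2.31 (SE 0.48; edgeR adjusted p = 0.0642), and it passed without KI replicate 1 in both media (2.69, adjusted p = 0.0093) and without WT LIF replicate 2 (2.72, adjusted p = 0.0382), and also with DESeq2 (1.68% of genes called), limma-voom or no filter on low counts. The call for MT-CO2 was lost without WT LIF replicate 1 (adjusted p = 0.0566) or replicate 3 (0.0550), and in 1 of 2 random draws that thinned libraries to the smallest total (0.0501). For MT-CO1 the interaction was 0.03 (95% interval -0.50 to 0.56), for MT-CYTB -0.24 (-0.90 to 0.42) and for MT-ATP8 0.63 (-0.45 to 1.71), and none passed.

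With RNase I, none of the 6 genes passed edgeR's test in any of the 5 comparisons. KI against WT in LIF/2i called 0.232% of 12095 genes, and 0 of the 6 had an unadjusted p under 0.05 or a DESeq2 call. MT-CO2 stood at 12.7 and 18.2 CPM in WT and 14.9 and 4.88 in KI, a log2 difference of -0.57 (95% interval -1.61 to 0.48). MT-CO3 stood at 24.0 and 38.8 CPM in WT and 27.1 and 14.9 in KI (-0.54, 95% interval -1.29 to 0.20). MT-ATP6 stood at 21.6 and 22.9 CPM in WT and 29.7 and 12.8 in KI (-0.02, 95% interval -0.88 to 0.83). All 3 genes were lower in KI replicate 2 than in any WT library, and higher in KI replicate 1 than in at least 1 WT library. MT-CO1 (0.06), MT-ATP8 (-0.14) and MT-CYTB (0.41) also overlapped between genotypes, so that 0 of the 6 separated them, against 43.5% of all genes in either direction. None of the intervals of MT-CO2, MT-CO3 and MT-ATP6 reached the MNase difference of the same gene.

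In LIF with RNase I, where 0.116% of genes were called, MT-CYTB and MT-ATP8 had the largest differences of the 6. MT-CYTB stood at 472 and 715 CPM in WT and 1620 and 1150 in KI, a log2 difference of 1.22 (SE 0.28; edgeR adjusted p = 0.176, unadjusted p = 0.0018). MT-ATP8 stood at 215 and 371 CPM in WT and 779 and 526 in KI, a log2 difference of 1.16 (SE 0.35; edgeR adjusted p = 0.252). With MT-CO1, at 352 and 352 CPM in WT and 448 and 526 in KI, these were the 3 genes of 6 whose genotypes did not overlap, all higher in KI, as were 22.2% of all genes tested. DESeq2 called 1.67% of genes, 53 higher and 149 lower, and 1 of the 6, MT-CYTB (1.23, DESeq2 adjusted p = 0.0049). MT-CO2, MT-CO3 and MT-ATP6 differed by 0.09, -0.03 and 0.39, with intervals that included 0.

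Between media, none of the 6 genes passed edgeR's test with RNase I. In WT cells, where 13.6% of genes were called, their log2 differences lay between -0.28 and 0.23, and 0 had an unadjusted p under 0.05 or a DESeq2 call. In KI cells, where 3.46% were called, MT-ATP8 differed by 1.43 (SE 0.36; edgeR adjusted p = 0.0690) and MT-CYTB by 1.03 (SE 0.27; edgeR adjusted p = 0.0844), and DESeq2, which called 6.82% of genes, called both. Both genes were higher in LIF in both same-numbered pairs of KI libraries, MT-ATP8 at 313 and 779 CPM and at 171 and 526, and MT-CYTB at 823 and 1620 and at 537 and 1150. Deviations of these pairs correlated by 0.46, and with the replicate block, which is shared with WT, the edgeR adjusted p was 0.0750 for MT-ATP8 and 0.0913 for MT-CYTB. Without KI LIF/2i replicate 1, MT-ATP8 passed edgeR's test (1.95, adjusted p = 0.0431). The interaction called 0 of 12095 genes with edgeR (0%), 5 higher and 22 lower with DESeq2, and 645 had an unadjusted p under 0.05. Among the 6 genes 1 did, MT-ATP8 (edgeR adjusted p = 0.886).

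Within the mitochondrial counts, some shares and ratios did not overlap between genotypes with RNase I. MT-CO2, MT-CO3 and MT-ATP6 together made up 2.40% and 2.63% of these counts in WT LIF/2i and 1.79% and 1.42% in KI LIF/2i. In LIF they made up 2.25% and 2.43% in WT and 1.34% and 1.49% in KI. Every KI library lay below every WT library of its medium. With 2 libraries per group, 43.5% of all genes separated the genotypes by CPM in LIF/2i and 46.5% in LIF, in either direction. MT-ATP6 per 100 MT-ATP8 counts was 9.37 and 7.47 in WT LIF/2i and 9.50 and 7.45 in KI LIF/2i, which overlapped, and 9.23 and 8.68 in WT LIF and 4.62 and 6.06 in KI LIF, which did not. Scaled by the mitochondrial total, none of the 6 genes passed edgeR's test with RNase I between genotypes, where 0.984% of all genes were called in LIF/2i and 20.2% in LIF with all-gene medians of -0.12 and -0.92. The values in LIF/2i were -0.90 for MT-CO2 (95% interval -1.91 to 0.11), -0.77 for MT-CO3 (-1.65 to 0.11) and -0.32 for MT-ATP6 (-1.21 to 0.57), and in LIF -0.81, -0.92 and -0.49.

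**Figure D3:**
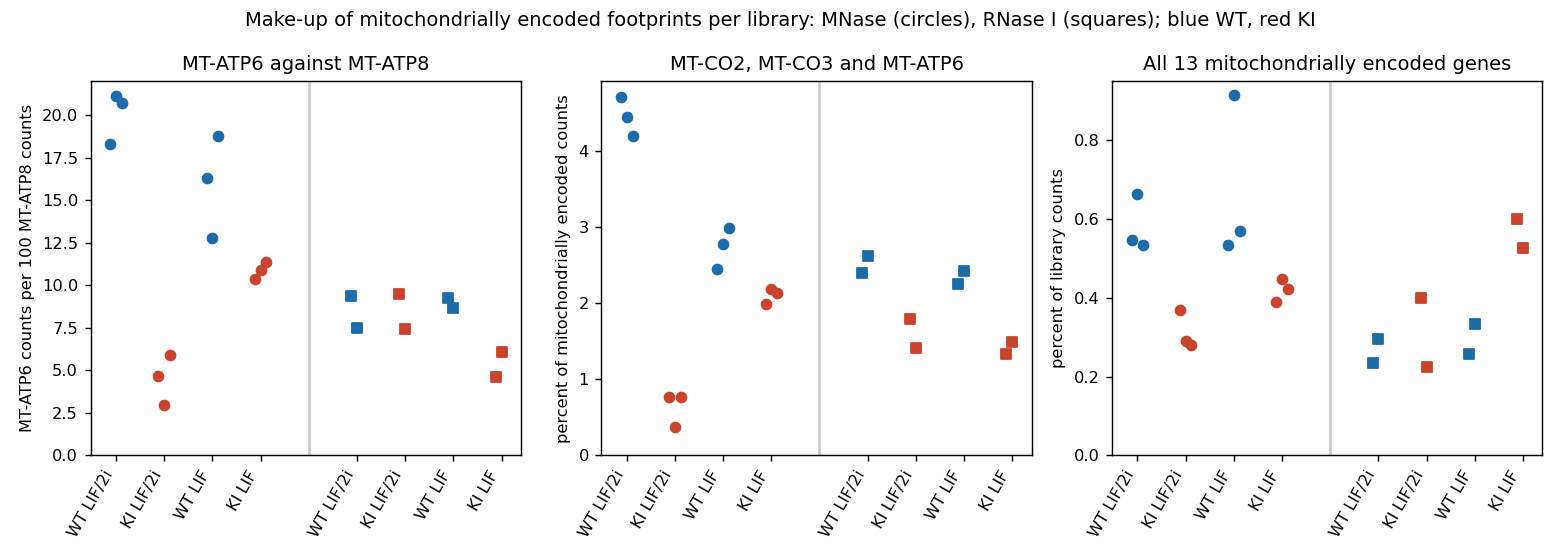
Per library, MT-ATP6 counts per 100 MT-ATP8 counts, the percent of mitochondrially encoded counts held by MT-CO2, MT-CO3 and MT-ATP6, and the percent of library counts held by all 13 mitochondrially encoded genes; MNase as circles, RNase I as squares, WT in blue, KI in red. The KI LIF/2i MNase libraries are lowest in the first panel at 2.94 to 5.90 and in the second at 0.377 to 0.773, and the KI LIF RNase I libraries are highest of that nuclease in the third at 0.525 and 0.598.

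The nucleases were compared directly in replicates 1 and 2, where libraries of the same group and number were digested with either nuclease. Same-numbered libraries deviated together, with correlations of 0.49 to 0.71, so the fit with a replicate block is given beside the fit without it. With 2 libraries per group the deviations mirror each other, and each correlation rests on a single contrast. The labels do not say that same-numbered libraries share a lysate, and the pairing was taken from the number and these correlations. On a common scale, RNase I minus MNase for MT-CO2 was -2.41 and -2.10 in log2 CPM in the WT LIF/2i pairs, and 1.48 and 0.90 in the KI pairs. For MT-CO3 the levels with RNase I were 24.7 against 83.8 and 39.4 against 93.3 in WT, and 27.5 against 8.48 and 14.9 against 3.95 in KI. For MT-ATP6 they were 22.2 against 105 and 23.2 against 117 in WT, and 30.2 against 15.9 and 12.8 against 4.94 in KI. In both WT LIF/2i pairs RNase I gave the lower level of these 3 genes, and in both KI LIF/2i pairs the higher. In LIF it was again lower in both WT pairs. In the KI LIF pairs RNase I minus MNase was 0.14 and -1.04 for MT-CO2 and 0.54 and 0.19 for MT-CO3. For MT-ATP6 it was -0.27 and -0.33.

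The difference between nucleases in the KI against WT effect in LIF/2i, RNase I minus MNase, was 3.75 for MT-CO2 (SE 0.69), 3.29 for MT-CO3 (SE 0.53) and 3.39 for MT-ATP6 (SE 0.72) without the block. None passed (edgeR adjusted p of 0.272, 0.230 and 0.279), and 0 of 12732 genes (0%) did, as in the other 3 comparisons between nucleases. Of these genes 8.78% had an unadjusted p under 0.05, among them 4 of the 6. DESeq2 called 8 genes higher and 71 lower (0.620%), with MT-CO1 among the former (DESeq2 adjusted p = 0.0444), and gave no adjusted p for MT-CO2, MT-CO3 and MT-ATP6. These 3 genes passed edgeR's test when all 20 libraries were fitted (3.39, 3.19 and 3.26, with edgeR adjusted p of 0.0228, 0.0093 and 0.0247; 0.483% of genes called) and when no filter on low counts was used (0.0336% called). With the replicate block edgeR called 15.3% of genes and 6.32% as higher, and all 6 were called higher. The blocked values were 3.65 for MT-CO2 (SE 0.32; edgeR adjusted p = 6.3e-06), 3.28 for MT-CO3 (SE 0.24; 4.6e-07) and 3.35 for MT-ATP6 (SE 0.22; 1.5e-07). MT-CO1 (1.26), MT-ATP8 (1.03) and MT-CYTB (0.71) had adjusted p between 3.7e-04 and 0.0040. Scaled by the mitochondrial total and without the block, MT-CO2, MT-CO3 and MT-ATP6 stood at 2.62, 2.29 and 2.35 and none of the 6 passed (edgeR adjusted p of 0.191 for each of the 3), with MT-CYTB at -0.25, MT-CO1 at 0.29 and MT-ATP8 at 0.04.

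In LIF, the KI against WT effect also differed between nucleases once libraries were paired. The block called 0.738% of genes and 0.306% as higher, and of the 6 it called MT-CYTB (1.77, SE 0.15; edgeR adjusted p = 8.4e-06), MT-CO1 (1.70, SE 0.18; 6.5e-05), MT-ATP8 (1.67, SE 0.21; 4.3e-04) and MT-ATP6 (1.38, SE 0.23; 0.0088). MT-CO2 (1.43, edgeR adjusted p = 0.0693) and MT-CO3 (1.09, 0.0502) did not pass. Without the block 0 of 12732 genes passed edgeR's test and the values of the 6 lay between 1.08 and 1.83. Scaled by the mitochondrial total and without the block they lay between -0.55 and 0.12, with MT-CO2, MT-CO3 and MT-ATP6 below 0. The 7 complex I subunits had values between 1.18 and 1.75 with the block, 5 of them called.

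The LIF against LIF/2i effect in KI cells differed between nucleases in both directions. With the block, where 0.935% of genes were called, MT-CO2 (-1.83, SE 0.38; edgeR adjusted p = 0.0256), MT-CO3 (-1.41, SE 0.27; 0.0153) and MT-ATP6 (-1.36, SE 0.24; 0.0113) had a lower effect with RNase I, and MT-CYTB a higher one (0.77, SE 0.15; 0.0147). MT-ATP8 (0.74, edgeR adjusted p = 0.0834) and MT-CO1 (0.57, 0.135) did not pass. In WT cells 0.0236% of genes were called with the block and none of the 6, whose values lay between -0.28 and 0.78. An average over groups mixes opposite signs for MT-CO2 and MT-ATP6. Both were lower with RNase I in the WT LIF/2i pairs and higher in the KI LIF/2i pairs, so the average describes neither. Averaged over groups, RNase I against MNase was -0.95 for MT-CO2 and -0.87 for MT-ATP6 without the block (edgeR adjusted p of 0.112 and 0.122), where 32.0% of genes were called. With the block it was -1.14 and -0.95 and both were called (0.0134 and 0.0231), where 47.1% of genes were. Both were also called without KI replicate 1 in both media (-1.72 and -1.39, adjusted p of 4.2e-04 and 0.0089).

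**Figure D4:**
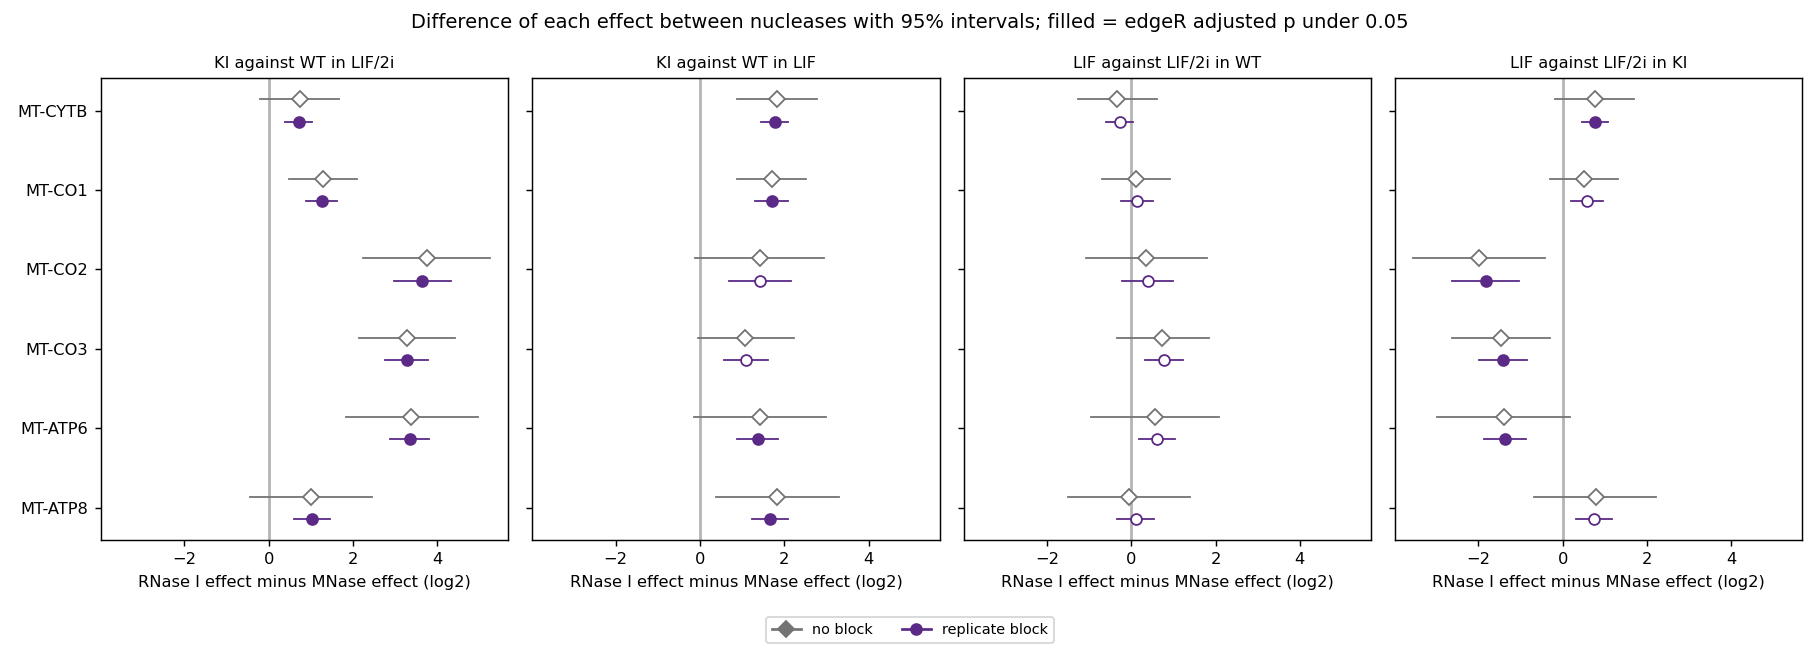
For each of the 6 genes, the effect measured with RNase I minus the effect measured with MNase, in log2 with 95% intervals, in 4 comparisons; diamonds are the fit without a block, circles the fit with the replicate block, filled where the edgeR adjusted p is under 0.05. MT-CO2, MT-CO3 and MT-ATP6 stand at 3.65, 3.28 and 3.35 with the block for KI against WT in LIF/2i, and the values without it lie close by with wider intervals.

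The 6 genes did not vary alike among themselves. Across the 12 MNase libraries, Pearson's r of log2 CPM was 0.98 to 0.99 among MT-CO2, MT-CO3 and MT-ATP6, 0.80 between MT-CYTB and MT-ATP8 and 0.42 between MT-CYTB and MT-CO1. Across the 8 RNase I libraries it was 0.71 to 0.91 among the first 3 and 0.93 between MT-CYTB and MT-ATP8. These values describe libraries that share groups, depth and the pool of mitochondrial counts. Of 10443 genes with a nuclear name and a mean of at least 5 CPM, those most like the mean of the 6 across the 12 MNase libraries were the histone gene HIST1H2AN (r = 0.97), PAM (0.96), the histone gene H2AC18 (0.95), PALM (0.95) and DESI1 (0.95). Across the 8 RNase I libraries the same 5 genes had r of -0.09, 0.39, -0.16, 0.42 and 0.02 with the same mean.

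The mitochondrially encoded subunits of complex I, the entry point of electrons from NADH, are made by the same ribosomes. With MNase in LIF/2i, 5 of the 7 were called lower in KI, against 11.5% of all genes, with log2 differences of -0.37 to -1.97 over all 7. MT-ND3 (-1.97, SE 0.46; edgeR adjusted p = 0.0090) and MT-ND6 (-1.38, SE 0.17; 5.6e-04), which is encoded on the other strand from the rest, differed most. In LIF 3 of the 7 were called lower, against 6.05% of all genes, with MT-ND6 at -0.98 (SE 0.18; edgeR adjusted p = 0.0045). From LIF/2i to LIF in KI cells, where 18.7% of all genes were called, 0 of the 7 passed the test. Their values lay between -0.44 (MT-ND6) and 0.71, with a median of 0.34. With RNase I none was called in any of the 5 comparisons, where 0% to 13.6% of all genes were. In KI against WT in LIF with RNase I the median of the 7 was 0.87. There 6 of the 7 were higher in every KI library than in any WT library, against 22.2% of all genes. From LIF/2i to LIF in KI cells with RNase I the median was 0.78, with MT-ND4L at 1.51. There 6 of the 7 were higher in every LIF library, against 20.3% of all genes. The rise of MT-CYTB and MT-ATP8 with RNase I was thus not particular to them.

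The nuclear partners of the 6 genes in complexes III, IV and V are made on cytosolic ribosomes and imported. For the nuclear lists, rose and fell stand for called higher and called lower. With MNase in LIF/2i, 4 of 9 complex III subunits rose in KI and 0 fell, led by the core protein Uqcrc2 (1.39, SE 0.19; edgeR adjusted p = 6.7e-04) and Uqcrh (0.77, SE 0.21; 0.0178). Of 12 complex IV subunits 1 rose, Cox7a2l (1.24, SE 0.26; edgeR adjusted p = 0.0052), and 1 fell, Cox8a (-0.50, SE 0.17; 0.0421). Of 15 complex V subunits 3 rose, among them the catalytic Atp5b (0.45, SE 0.10; edgeR adjusted p = 0.0065), and 1 fell, Atp5g2, a gene for the membrane ring (-2.91, SE 0.39; 6.3e-04). The list medians were 0.23, 0.14 and 0.14, against 0.01 over all genes, of which 13.8% were called higher and 11.5% lower. The counts in complexes IV and V lie near those shares for lists of 12 and 15 genes and are not read as a change of the lists. In LIF, where 7.36% of all genes were called higher and 6.05% lower, 6 of the 12 complex IV subunits fell and 0 rose, led by Cox5a (-0.84, SE 0.14; edgeR adjusted p = 0.0031) and Cox6c (-1.22, SE 0.25; 0.0083), with a list median of -0.54. In complex V 2 of 15 fell in LIF, Atp5g2 (-1.68, SE 0.35; edgeR adjusted p = 0.0085) and Atp5pb (-0.72, SE 0.17; 0.0146). In complex III 1 rose, Uqcrc2 (0.83, SE 0.19; edgeR adjusted p = 0.0144), and 1 fell, Uqcrq (-0.60, SE 0.17; 0.0390).

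Proteins that process, stabilise or translate mitochondrial messages, or assemble the complexes, are also encoded in the nucleus. With MNase, against 13.8% of all genes called higher and 11.5% lower in LIF/2i, of 15 tested genes for mitochondrial translation 4 rose in LIF/2i and 0 fell, led by Lrpprc, which stabilises mitochondrial messages (1.25, SE 0.19; edgeR adjusted p = 9.2e-04), and the elongation factor Gfm1 (1.09, SE 0.18; 0.0013). Of 20 tested genes for mitochondrial transcription and RNA processing 10 rose and 2 fell, led by Fastkd2 (1.54, SE 0.20; edgeR adjusted p = 5.6e-04) and the RNA-degrading enzyme Pnpt1 (1.13, SE 0.16; 7.4e-04). Of 28 assembly factors 1 rose, the complex III factor Ttc19 (0.86, SE 0.20; edgeR adjusted p = 0.0089), and 1 fell, the complex IV factor Cox18 (-0.69, SE 0.18; 0.0154). In LIF, against 7.36% and 6.05% of all genes, the counts were 4 up and 0 down for translation, 8 and 0 for transcription and processing, and 0 and 2 for assembly, the latter the copper chaperone Cox17 (-0.64, SE 0.15; edgeR adjusted p = 0.0138) and Cox14 (-0.74, SE 0.19; 0.0219). With RNase I, 0 genes of these 6 nuclear lists were called between genotypes in either medium. Over all genes 0.232% were called in LIF/2i and 0.116% in LIF, so a count of 0 lies near those shares. In LIF/2i with RNase I the 2 genes named first for translation, Lrpprc and Gfm1, differed by 0.11 and 0.41, and Atp5g2 by -0.54.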

How the data were processed

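Ribosome footprints were counted in 12 MNase and 8 RNase I libraries. The authors deposited raw counts per coding sequence, with 1 transcript per gene. UMI-tools 1.0.1, Bowtie 1.3.0 and cutadapt 3.4 are named in the submitters' processing notes. Build, annotation and the handling of multi-mapping reads are not stated there. In R 4.3.3, edgeR 4.0.16 (filterByExpr, TMM, quasi-likelihood test, Benjamini-Hochberg over all genes tested, threshold 0.05, two-sided) was fitted to the 12 MNase libraries (12806 genes, biological coefficient of variation 0.210), the 8 RNase I libraries (12095, 0.218) and replicates 1 and 2 of both (12732). Log2 CPM used a prior count of 2. The scripts were tested on simulated data. Alternatives were DESeq2 1.42.0, limma-voom (limma 3.58.1), other scalings, no filter, thinning, left-out libraries and a replicate block. The members were picked by gene name, and members, lists and tests were chosen with earlier results of these data known. All 6 members were named in every comparison; from other lists, up to the 2 genes of smallest adjusted p were named per medium.

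Replicate numbers come from the sample titles. Deviations from group means correlated by 0.49 to 0.71 between same-numbered MNase and RNase I libraries, and the replicate block gave each such pair its own term. They correlated by 0.56, 0.32 and 0.39 between KI libraries of both media with MNase. Within a nuclease, the replicate block was a term per replicate number shared by KI and WT. KI libraries of both media were therefore not fitted as pairs of their own, and values given without the block ignore this pairing. KI RNase I libraries of both media correlated by 0.46, over 2 pairs only. The correlations between nucleases likewise rest on 2 pairs per group. Other same-numbered MNase libraries correlated by -0.15 to 0.12 and were not taken as pairs. No pair of replicates agreed within sampling noise. No sequences are printed.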

Additional observations from a re-analysis of the deposited data

Results flagged for a closer look

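These results were picked out because a test of the difference between 2 effects passed an edgeR adjusted p of 0.05. In the MNase libraries the KI against WT difference itself differed between media for MT-CO2 (2.81) and MT-CO3 (2.66). It was less negative in LIF (-1.13 and -1.07) than in LIF/2i (-3.93 and -3.73). Higher and lower below refer to signed log2 values, so a higher value can be a smaller difference.

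With libraries paired by replicate number, the KI against WT difference in LIF/2i was higher with RNase I than with MNase for MT-CYTB (0.71), MT-CO1 (1.26), MT-CO2 (3.65), MT-CO3 (3.28), MT-ATP6 (3.35) and MT-ATP8 (1.03). In LIF the same held for MT-CYTB (1.77), MT-CO1 (1.70), MT-ATP6 (1.38) and MT-ATP8 (1.67). The LIF against LIF/2i difference in KI cells was higher with RNase I for MT-CYTB (0.77) and lower for MT-CO2 (-1.83), MT-CO3 (-1.41) and MT-ATP6 (-1.36). Without the block, in replicates 1 and 2 with the filter on low counts, none of these nuclease differences passed edgeR's test. For KI against WT in LIF/2i, MT-CO2, MT-CO3 and MT-ATP6 passed it without the block when all 20 libraries were fitted. The same 3 genes passed it when no filter was used.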

How the results depend on the processing

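All values here are log2 differences of the 6 genes or counts of the 6 called at an adjusted p under 0.05, and the cause of each change was not tested. With MNase, MT-CO2, MT-CO3 and MT-ATP6 in KI against WT in LIF/2i stayed lower and called in every alternative and with every library left out. Leaving out an RNase I library leaves its group with 1 library, which is then assumed to vary like the other groups, as it does for KI when its replicate 1 is left out in both media. MT-CO2 rested on 35, 20 and 41 counts in the KI LIF/2i libraries with MNase, and values of that size carry a wide counting error.

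The number of the 6 genes called moved as follows. Where no share of all genes is given beside a count, the last paragraph gives the range of all-gene counts over the alternatives. For LIF against LIF/2i in WT with MNase it went from 1 to 0 with library totals alone, thinning, 1 effect fitted for both nucleases, or scaling by the mitochondrial total. Fitting 1 effect for both nucleases gave, in place of the MNase counts, 0 for KI against WT in LIF, 1 for LIF against LIF/2i in KI and 0 for the interaction, and, in place of the RNase I counts, 4 for KI against WT in LIF/2i and 1 for LIF against LIF/2i in KI. Scaling by the mitochondrial total gave 1 for KI against WT in LIF with MNase, where 28.1% of all genes were called. With RNase I, DESeq2 gave 1 for KI against WT in LIF (1.67% of all genes) and 2 for LIF against LIF/2i in KI (6.82%), and no filter gave 2 and 2. For RNase I against MNase, no filter gave 2, limma-voom 1 and leaving out KI replicate 1 gave 2. That comparison called 32.0% of all genes, and 3003 to 6001 genes over the alternatives, so 1 or 2 of the 6 lies near that share. For the nuclease difference of KI against WT, DESeq2 gave 1 in LIF/2i (0.620% of all genes) and 2 in LIF (8 of all genes higher, 5 lower). In LIF/2i no filter gave 3 (0.0336%) and all 20 libraries gave 3 (0.483%). Calls near the threshold differed between 2 random draws of thinning, the second chosen after seeing the data: the second kept MT-CO3 between media in WT, but gave 1 for the interaction with MNase, 1 for LIF against LIF/2i in KI with RNase I and 1 for RNase I against MNase.

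With the replicate block, LIF against LIF/2i in WT with MNase called 0 of the 6 (MT-CO3 at -0.68, adjusted p = 0.0590), in libraries whose numbers were not taken as pairs. Paired, RNase I against MNase called 2, and the nuclease difference called 6 for KI against WT in LIF/2i, 4 in LIF and 4 for LIF against LIF/2i in KI. The block turned MT-ATP8 to 0.10 in the nuclease difference between media in WT. It changed no other call of the 6.

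Some values changed sign, most of them close to 0. With MNase these were MT-ATP8 between media in WT under limma-voom (-0.06) and the mitochondrial total (-0.17). With 1 effect for both nucleases they were MT-CYTB in KI against WT in LIF/2i (0.00) and LIF (0.24), MT-ATP8 in LIF (0.22) and the MT-CYTB interaction (0.23). With the mitochondrial total they were MT-CYTB in KI against WT in LIF/2i (0.55) and LIF (0.18), MT-ATP8 in LIF (0.23), MT-CYTB between media in KI (-0.01) and the MT-CO1 interaction (-0.13).

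With RNase I and library totals alone, MT-ATP6 in KI against WT in LIF/2i stood at 0.01, MT-CO3 in LIF at 0.00 and MT-CO3 between media in WT at 0.01. Limma-voom gave MT-ATP6 0.06 between genotypes in LIF/2i and MT-CO3 0.04 between media in WT. Thinning gave MT-CO2 0.09 in KI against WT in LIF/2i, 0.25 between media in WT and -0.01 in the interaction, and MT-ATP6 -0.06 between media in WT. The second draw gave MT-CO2 -0.09 in KI against WT in LIF and MT-CO3 0.07 between media in WT. Without KI replicate 1, MT-CO1 stood at -0.38 in KI against WT in LIF/2i, and MT-CO2 at -0.12 and MT-CO3 at 0.04 in LIF. With 1 effect for both nucleases, MT-CO1 stood at -0.78 in KI against WT in LIF/2i, MT-CO1, MT-CO2 and MT-ATP6 at -0.52, -0.73 and -0.49 in LIF, MT-ATP6 at -0.20 between media in WT and MT-CO1 at -0.01 in KI. With the mitochondrial total, MT-CO1 stood at -0.13 in KI against WT in LIF/2i, and MT-CO1, MT-CO2 and MT-ATP6 at -0.43, -0.81 and -0.49 in LIF. Between media in KI it gave -0.54, -0.29, -0.28 and -0.07 for MT-CO1, MT-CO2, MT-CO3 and MT-ATP6, and in the interaction -0.30, -0.15 and -0.17 for MT-CO1, MT-CO3 and MT-ATP6.

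RNase I against MNase turned to 0.45, 0.47, 0.45 and 0.15 for MT-CYTB, MT-CO1, MT-CO3 and MT-ATP8 with the mitochondrial total, and to 0.07, 0.06 and 0.01 for MT-CYTB, MT-CO1 and MT-CO3 with all 20 libraries. The nuclease difference of KI against WT turned, with the mitochondrial total, to -0.25 for MT-CYTB in LIF/2i and to -0.27, -0.55 and -0.30 for MT-CO2, MT-CO3 and MT-ATP6 in LIF. The nuclease difference between media turned to 0.16 for MT-ATP8 in WT and -0.01 for MT-CO1 in KI on that scale, and to 0.10 for MT-ATP8 in WT under limma-voom.

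Leaving out 1 library at a time, the count of the 6 called ranged from 0 to 1 for LIF against LIF/2i in WT (MT-CYTB in place of MT-CO3 without WT LIF replicate 1), from 3 to 4 for LIF against LIF/2i in KI and from 1 to 3 for the interaction with MNase, from 0 to 1 for LIF against LIF/2i in KI with RNase I, and from 0 to 2 for RNase I against MNase, where both calls came without KI LIF/2i MNase replicate 2 or KI LIF/2i RNase I replicate 1. With MNase, MT-ATP8 ranged from -0.77 to 0.16 in KI against WT in LIF and from -0.56 to 0.37 between media in WT, and the interaction from -0.40 to 0.12 for MT-CYTB and from -0.13 to 0.21 for MT-CO1. With RNase I in LIF/2i, KI against WT ranged from -0.39 to 0.39 for MT-CO1, -0.83 to 0.42 for MT-ATP6 and -0.68 to 0.23 for MT-ATP8, and in LIF from -0.13 to 0.32 for MT-CO2 and -0.17 to 0.12 for MT-CO3. Between media in WT it ranged from -0.14 to 0.48 for MT-CYTB, -0.37 to 0.29 for MT-CO3, -0.18 to 0.53 for MT-ATP6 and -0.34 to 0.46 for MT-ATP8, and in KI from -0.09 to 0.68 for MT-CO1 and -0.16 to 1.48 for MT-CO2. The MT-ATP6 interaction with RNase I ranged from -0.04 to 1.23. RNase I against MNase ranged from -0.21 to 0.10 for MT-CYTB, -0.20 to 0.07 for MT-CO1 and -0.37 to 0.11 for MT-CO3. The nuclease difference between media in WT ranged from -0.74 to 0.22 for MT-CYTB, -0.18 to 0.43 for MT-CO1, -0.01 to 0.83 for MT-CO2 and -0.66 to 0.96 for MT-ATP8.

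Over all genes, the count called for KI against WT with MNase was 3250 in LIF/2i, 1574 to 3888 with a library left out and 2463 to 6624 under the other alternatives, and in LIF it was 1718, 718 to 2242 and 1303 to 3596. For LIF against LIF/2i it was 2690, 1654 to 3172 and 1619 to 4802 in WT, and 2395, 1478 to 2805 and 1564 to 3481 in KI, and for the interaction 43, 10 to 148 and 35 to 437. With RNase I the counts in the same order of comparisons were 28, 14, 1649, 418 and 0, with a library left out 0 to 102, 0 to 45, 326 to 2241, 86 to 748 and 0 to 2, and with other alternatives 14 to 3489, 3 to 2718, 1074 to 4802, 155 to 3481 and 0 to 263. The nuclease difference called 0 genes in each of 4 comparisons, and up to 1950 for KI against WT in LIF/2i with the block and 6738 in LIF with the mitochondrial total.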
